A study of Homo sapiens with 6 samples.

Results

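The protocadherins, the largest family of cadherin cell adhesion molecules, were compared between UBE2S knockdown and control cells of A375, an established human melanoma cell line. The members were all probe sets whose only gene symbol in the array annotation begins with PCDH. They numbered 126 of the 49395 probe sets on the array and represented 67 of 18132 genes: 15 of the alpha cluster (PCDHA), 18 of the beta cluster (PCDHB), 22 of the gamma cluster (PCDHG) and 12 non-clustered genes. Knockdown cells carried a lentiviral short hairpin RNA against UBE2S, a ubiquitin-conjugating enzyme of the anaphase-promoting complex. The labels spell this gene in 2 ways, read here as UBE2S. Control cells were A375 cells too, and the labels do not state what they received. Each group held 3 arrays, labelled as biological replicates, with no statement on separate transductions. P-values therefore measure only the spread between these samples. The family was picked with results of this same contrast known, so the knockdown and control values of its members are given as a description and support nothing.

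Values are log2 expression with each probe set centred on its median over the 6 arrays, and a gene is the mean of its probe sets. Apart from a coarse signal class described below, they give differences between arrays and no level, and genes cannot be ranked by abundance. Changes are knockdown minus control on the log2 scale with the standard error (SE) of a limma fit across all genes. A gene was called higher or lower, written as rose or fell, at a Benjamini-Hochberg adjusted p under 0.05 over all genes. UBE2S itself read -1.13, -1.05 and -1.01 in the knockdown arrays, against 1.06, 1.01 and 1.01 in the control arrays, a change of -2.09 (SE 0.04). Its transcript thus stood at 23.5% of the control level.

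The clustered protocadherins lie side by side on chromosome 5. In the alpha and gamma clusters, each gene's own first exon, with its own promoter, is spliced to constant exons that the whole cluster shares, whereas beta genes are single exons with no constant part. In neurons, cells express different sets of these isoforms by promoter choice, which involves DNA methylation and the looping proteins CTCF and cohesin, and the proteins bind like partners on neighbouring cells. The non-clustered protocadherins have separate loci and more varied roles in adhesion, cell movement and signalling.

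Most of these promoters carry a short conserved element near the start of transcription, which contains CGCT in many genes, so the promoters of the genes with the largest changes are shown first. Sequences are from RefSeq, build GRCh38.p14, plus strand, from 250 bases before to 50 bases after the annotated start, and 57 of the 67 genes were matched. The genes without an entry are PCDHA3, PCDHA13, PCDHB6, PCDHB11, PCDHB17P, PCDHB18P, PCDHGA12, PCDHGC5, PCDH10 and PCDH20. The promoter of PCDHB15, the beta gene with the largest change, lies at chr5:141245145-141245444, and that of PCDHA9, the alpha gene with the largest change, at chr5:140848132-140848431. Capitals mark GGTGGCGCT in PCDHB15 and GATGTCNCT in PCDHA9.
PCDHB15 promoter: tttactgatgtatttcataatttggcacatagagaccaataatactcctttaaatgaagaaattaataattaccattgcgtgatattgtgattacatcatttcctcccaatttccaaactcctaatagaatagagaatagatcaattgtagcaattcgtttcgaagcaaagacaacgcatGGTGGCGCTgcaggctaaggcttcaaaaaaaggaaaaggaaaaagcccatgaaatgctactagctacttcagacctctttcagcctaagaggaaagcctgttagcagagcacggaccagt
PCDHA9 promoter: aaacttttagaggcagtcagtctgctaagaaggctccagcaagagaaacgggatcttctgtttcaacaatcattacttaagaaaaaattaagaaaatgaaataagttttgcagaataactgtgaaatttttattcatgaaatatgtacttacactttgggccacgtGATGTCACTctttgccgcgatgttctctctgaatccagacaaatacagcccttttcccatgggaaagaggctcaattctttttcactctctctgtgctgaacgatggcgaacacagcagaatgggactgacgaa

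The same stretch is shown as 44 bases for further beta genes, to compare promoters of genes that rose by different amounts (PCDHB10, PCDHB2, PCDHB14, PCDHB8, PCDHB5 and PCDHB13) with those of PCDHB4 and PCDHB12, which were not called. Capitals again mark GGTGGCGCT. PCDHB10 lies at chr5:141192295-141192338 and PCDHB12 at chr5:141208639-141208682, both on the plus strand.
PCDHB10: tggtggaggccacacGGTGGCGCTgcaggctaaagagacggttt
PCDHB2: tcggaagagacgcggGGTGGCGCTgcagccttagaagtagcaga
PCDHB14: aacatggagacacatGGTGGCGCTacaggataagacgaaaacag
PCDHB8: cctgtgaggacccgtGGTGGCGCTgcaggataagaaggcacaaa
PCDHB5: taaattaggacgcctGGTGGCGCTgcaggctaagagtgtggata
PCDHB13: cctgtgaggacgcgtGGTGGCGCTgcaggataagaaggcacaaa
PCDHB4: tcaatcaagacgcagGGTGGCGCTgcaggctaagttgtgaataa
PCDHB12: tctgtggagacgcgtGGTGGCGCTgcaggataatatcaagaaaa

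The alpha windows show GATGTCNCT in capitals for PCDHA7, PCDHA10, PCDHA4 and PCDHA2, which rose, and for PCDHA5 and PCDHA8, which were not called. The gamma windows show GGCGCCGCT in capitals for PCDHGA1 and PCDHGB1, which rose, and for PCDHGB4 and PCDHGB6, which were not called. PCDHA7 lies at chr5:140834168-140834211 and PCDHGA1 at chr5:141330399-141330442, both on the plus strand.
PCDHA7: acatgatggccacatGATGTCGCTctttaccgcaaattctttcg
PCDHA10: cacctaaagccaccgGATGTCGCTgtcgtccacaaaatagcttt
PCDHA4: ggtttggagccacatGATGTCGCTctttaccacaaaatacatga
PCDHA2: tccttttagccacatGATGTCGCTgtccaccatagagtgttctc
PCDHA5: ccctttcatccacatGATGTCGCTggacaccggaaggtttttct
PCDHA8: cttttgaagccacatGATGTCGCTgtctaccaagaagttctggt
PCDHGA1: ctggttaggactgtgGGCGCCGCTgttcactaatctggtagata
PCDHGB1: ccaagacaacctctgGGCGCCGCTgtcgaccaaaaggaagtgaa
PCDHGB4: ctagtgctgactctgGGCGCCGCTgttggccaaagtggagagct
PCDHGB6: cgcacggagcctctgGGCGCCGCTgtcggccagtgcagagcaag

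Each of these 3 motifs was searched on both strands of the 300-base windows. Each spelling had been assigned to a cluster before the search, so its presence there is a description and no test. It was found in that cluster and in no window of the other clusters or of the non-clustered genes. GATGTCNCT takes in PCDHA9 only through its free N, which is A there. Counts are of genes, while the shares of all windows count windows, those of this family among them. GGTGGCGCT was present in 13 of 14 beta promoters, among them 11 of 11 genes that rose and 2 of 3 that were not called, against 0.501% of all 35116 promoter windows. GATGTCNCT was present in 10 of 13 alpha promoters, with 6 of 6 that rose and 4 of 7 that were not called, against 0.817% of all windows. GGCGCCGCT was present in 6 of 20 gamma promoters, with 2 of 2 that rose and 4 of 18 that were not called, against 1.08% of all windows. The 4-letter core CGCT, which lies inside the other motifs (in GATGTCNCT where N is G), was in 12 of 13 alpha, 14 of 14 beta, 20 of 20 gamma and 9 of 10 non-clustered promoters and in 70% of all windows. The alpha promoter without it was that of PCDHA9. Median GC content was 37.3% in alpha, 40.8% in beta, 42.0% in gamma and 56.8% in non-clustered promoters, and 58.7% over all windows. These matches describe the windows and show no binding.

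Across the family, 26 of 67 genes rose, 2 fell and 39 were not called. Among all genes, 40.1% were called, 21.4% higher and 18.6% lower. The median change of the protocadherins was 0.09, against -0.0038 for all genes. By array, 30 genes were higher in all 3 knockdown arrays than in all 3 control arrays and 3 were lower, where 26.2% and 23.9% of all genes did so. The calls were spread unevenly: 15 of 18 beta, 6 of 15 alpha, 3 of 22 gamma and 2 of 12 non-clustered genes rose, and both falls were among the non-clustered genes.

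How many of these genes count as higher depended on the scaling of the arrays. The mean of the 18 hybridization spike-in probe sets was 0.17 higher in knockdown arrays than in control arrays, and that of the 24 poly-A spike-in probe sets 0.10 higher. Centring the arrays on the hybridization spike-ins moved the median of all genes to -0.17, and 11 protocadherins were then higher and 19 lower, where 9.73% of all genes were higher and 50.7% lower. With poly-A spike-ins the median of all genes was -0.10, and 15 were higher and 10 lower, where 13.7% of all genes were higher and 34.7% lower. Of the 26 rises, 11 were still called higher with hybridization spike-ins and 15 with poly-A spike-ins, and both falls were still called lower. Changes are given on the deposited scaling unless another is named. Its median of all genes was -0.0038, and which scaling is right was not tested.

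The beta cluster held the largest rise of the family and most of its calls. Beta protocadherins are single-exon adhesion proteins with no shared intracellular part, and their functions one by one are little known. PCDHB15 read 0.52, 0.74 and 0.41 in the knockdown arrays, against -0.48, -0.41 and -0.41 in the control arrays. PCDHB10 read 0.38, 0.36 and 0.48 in the knockdown arrays, against -0.36, -0.51 and -0.48 in the control arrays. In both genes all knockdown arrays lay above all control arrays, and because values are centred on the 6-array median such a gap always straddles 0. The change of PCDHB15 was 0.99 (SE 0.08), 1.98-fold, and that of PCDHB10 0.86 (SE 0.05), 1.82-fold.

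PCDHB2 read 0.31, 0.39 and 0.48 in the knockdown arrays, against -0.31, -0.37 and -0.39 in the control arrays. PCDHB14 read 0.21, 0.52 and 0.64 in the knockdown arrays, against -0.21, -0.31 and -0.26 in the control arrays. PCDHB8 read 0.19, 0.24 and 0.40 in the knockdown arrays, against -0.19, -0.61 and -0.45 in the control arrays. The groups did not overlap in any of these 3 genes, although the arrays of a group spread widely: PCDHB14 was lowest in knockdown replicate 1, and PCDHB8 was highest among controls in control replicate 1. Their changes were 0.75 (SE 0.05), 0.71 (SE 0.10) and 0.69 (SE 0.10).

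A further 10 beta genes rose by less. PCDHB5 changed by 0.66 and PCDHB13 by 0.43. PCDHB16, PCDHB7 and the pseudogene PCDHB17P changed by 0.29, 0.27 and 0.27. PCDHB3, the pseudogene PCDHB18P, PCDHB11, PCDHB9 and PCDHB6 changed by 0.24, 0.22, 0.21, 0.15 and 0.14. No probe set of PCDHB18P or PCDHB9 was called in the fit over probe sets. With hybridization spike-ins the calls of PCDHB16, PCDHB7, PCDHB17P, PCDHB3, PCDHB18P and PCDHB11 were lost, and PCDHB9 and PCDHB6 turned to -0.013 and -0.03. With poly-A spike-ins the calls of PCDHB7, PCDHB3, PCDHB18P, PCDHB11, PCDHB9 and PCDHB6 were lost. Some small calls were lost when 1 array was left out. PCDHB11 was not called without knockdown replicate 1, 2 or 3 or control replicate 1 or 2 (0.17 to 0.23), and PCDHB18P (0.15 to 0.25), PCDHB3 (0.15 to 0.27) and PCDHB9 (0.14 to 0.15) were not called without knockdown replicate 1 or 2 or control replicate 2 or 3. PCDHB6 was not called without control replicate 1 (0.14), nor PCDHB7 without control replicate 3 (0.24). The beta median was 0.27 (range -0.05 to 0.99), 0.10 with hybridization spike-ins and 0.17 with poly-A spike-ins.

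The 3 beta genes that were not called were PCDHB4 (0.10), PCDHB1 (0.04) and PCDHB12 (-0.05). PCDHB1, at the alpha-side end of the cluster, had the smallest change of the cluster. It read -0.02, 0.17 and -0.03 in the knockdown arrays, against -0.11, 0.10 and 0.02 in the control arrays. The groups overlapped, and the highest value of each group lay in replicate 2. All probe sets of these 3 genes were in the lowest of 3 signal classes, as were those of PCDHB3 and PCDHB11, which rose. The classes were read from the rounding of the deposited values. They stand for a log2 value before centring of 8 to 16 (high), 4 to 8 (middle) or 2 to 4 (low).

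**Figure D1:**
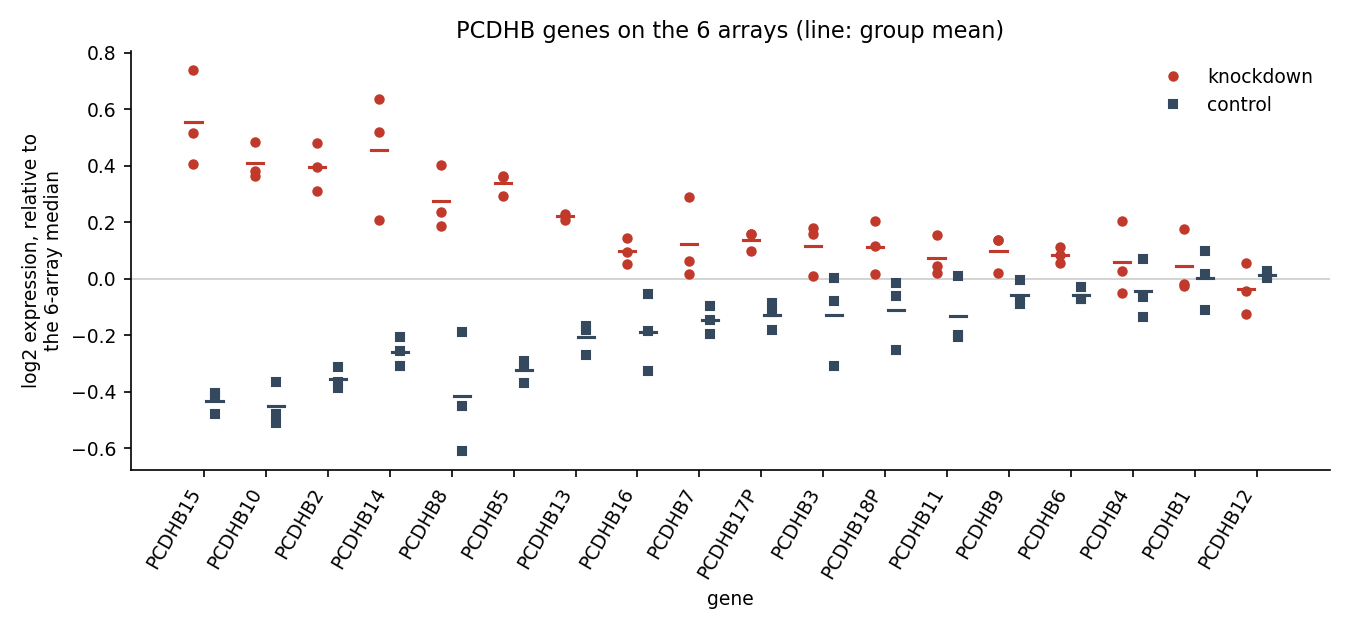
Log2 expression of the 18 PCDHB genes relative to the 6-array median (y axis), by gene from the largest to the smallest change (x axis), with 1 point per array, knockdown left and control right, and a line at each group mean. In 15 genes all knockdown points lie above all control points, and PCDHB4, PCDHB1 and PCDHB12 overlap. With hybridization spike-in centring the changes of PCDHB9 and PCDHB6, among the called genes, turn to below 0.

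The size of the beta changes differed between signal classes. Of 18 beta probe sets in the middle class, 13 were called higher, with a median change of 0.63. Of 14 in the low class, 3 were called higher, with a median of 0.11. The share of all probe sets called higher was 21.0% in the middle class and 4.63% in the low class. PCDHB13 shows the spread within 1 gene: 3 of its 4 middle-class probe sets changed by 0.68, 0.66 and 0.61, the fourth by -0.04, and its low-class probe set by 0.23. The part of the signal level in these differences was not tested.

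The alpha cluster showed a rise in 6 of its 15 genes, and none fell. Alpha protocadherins share an intracellular domain that binds regulators of the actin cytoskeleton. PCDHA9 read 0.25, 0.52 and 0.60 in the knockdown arrays, against -0.25, -0.44 and -0.61 in the control arrays. The groups were well apart, with the smallest gap between knockdown replicate 1 and control replicate 1, and the change was 0.89 (SE 0.11), 1.85-fold. PCDHA7 read 0.18, 0.12 and 0.35 in the knockdown arrays, against -0.12, -0.18 and -0.24 in the control arrays. PCDHA10 read 0.07, 0.19 and 0.39 in the knockdown arrays, against -0.20, -0.13 and -0.07 in the control arrays. Both genes had their highest value in knockdown replicate 3 and no overlap, and they changed by 0.40 (SE 0.06) and 0.35 (SE 0.08).

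Lower in the list of alpha genes, PCDHA4 read 0.07, 0.18 and 0.17 in the knockdown arrays, against -0.16, -0.07 and -0.10 in the control arrays. PCDHA2 read 0.23, 0.04 and 0.09 in the knockdown arrays, against -0.13, -0.18 and -0.04 in the control arrays. The groups stood apart by little in PCDHA2 (change 0.24, SE 0.06) and by more in PCDHA4 (0.25, SE 0.04). PCDHA6 changed by 0.15, and its only probe set was not called in the fit over probe sets. With hybridization spike-ins PCDHA4 and PCDHA2 were no longer called and PCDHA6 turned to -0.02, and with poly-A spike-ins PCDHA2 and PCDHA6 were no longer called. Leaving out any array but control replicate 1 ended the call of PCDHA6 (0.10 to 0.17). PCDHA12 (0.20), PCDHA3 (0.19) and PCDHA13 (0.10) were not called, nor were PCDHA1, PCDHA11, PCDHA5 and PCDHA8, which lay between -0.05 and 0.05. Without knockdown replicate 2 PCDHA13 was called higher (0.15), and without control replicate 3 PCDHA12 was (0.33). The alpha median was 0.15, -0.02 with hybridization spike-ins and 0.05 with poly-A spike-ins.

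Probe sets annotated to many alpha genes at once were also read. They were no members, since they carry several symbols. Of 6 probe sets annotated to 10 or more PCDHA genes, 5 were called higher, where 19.5% of all probe sets were. Their changes ran from 0.09 to 0.82 with a median of 0.63, and the smallest belonged to the only one in the high signal class. The strongest read 0.41, 0.50 and 0.29 in the knockdown arrays, against -0.49, -0.29 and -0.48 in the control arrays, with no overlap. The median of these 6 was above the change of every single alpha gene but PCDHA9. Such probe sets can read the shared constant exons or several genes together. Each of the 6 carried 15 alpha symbols, as many as there are alpha genes here. Where their probes lie was not tested, so the 6 may not be independent readings.

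On the deposited scaling the gamma cluster had the smallest median change of the clusters. Gamma protocadherins are needed for the survival of some neurons and for dendrite self-avoidance in mice. Of 22 genes, 3 rose, none fell, and the median was 0.0030 (-0.16 with hybridization spike-ins and -0.09 with poly-A spike-ins). PCDHGA1, the first gene of the cluster, read 0.18, 0.11 and 0.09 in the knockdown arrays, against -0.21, -0.08 and -0.27 in the control arrays. PCDHGA12 read 0.21, 0.19 and 0.04 in the knockdown arrays, against -0.04, -0.12 and -0.17 in the control arrays. PCDHGB1 read 0.24, 0.05 and 0.19 in the knockdown arrays, against -0.02, -0.02 and -0.10 in the control arrays. The groups did not overlap in these 3 genes, and the gaps were narrow in PCDHGA12 and PCDHGB1. The changes were 0.31 (SE 0.05), 0.25 (SE 0.06) and 0.21 (SE 0.06).

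None of these 3 gamma calls was kept with hybridization spike-ins, under which 9 gamma genes were called lower, and PCDHGA1 alone was kept with poly-A spike-ins, under which 5 were called lower. PCDHGB1 was not called without knockdown replicate 1 or 3 or control replicate 3 (0.17 to 0.19), and PCDHGA8 was called higher without knockdown replicate 2 (0.17). In PCDHGA1 the 3 probe sets gave 0.53, 0.35 and 0.06. Those of PCDHGB1 gave 0.24 and 0.17, and neither was called in the fit over probe sets. The other 19 gamma genes lay between -0.09 and 0.13. Of the 12 PCDHGA genes 2 rose, and of the 7 PCDHGB genes 1 rose. Of 22 gamma probe sets in the middle signal class 3 were called higher, where 21.0% of all probe sets of that class were. Of 13 in the low class 4 were, where 4.63% were.

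The 5 C-type isoforms are the last variable exons of the alpha and gamma clusters; in mouse neurons several of them are expressed constitutively rather than by random choice. None was called. PCDHAC1 changed by -0.06, PCDHAC2 by -0.0052, PCDHGC3 by -0.09, PCDHGC4 by 0.00068 and PCDHGC5 by 0.09. PCDHAC2, the smallest change of the alpha cluster, read -0.32, 0.14 and 0.02 in the knockdown arrays, against -0.02, -0.19 and 0.07 in the control arrays. PCDHGC4, the smallest of the gamma cluster, read 0.02, 0.09 and -0.07 in the knockdown arrays, against -0.02, -0.04 and 0.10 in the control arrays. The groups overlapped in both, and the 3 knockdown arrays of PCDHAC2 differed more among themselves than the group means did. With hybridization or poly-A spike-ins PCDHAC1 and PCDHGC3 were called lower.

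**Figure D2:**
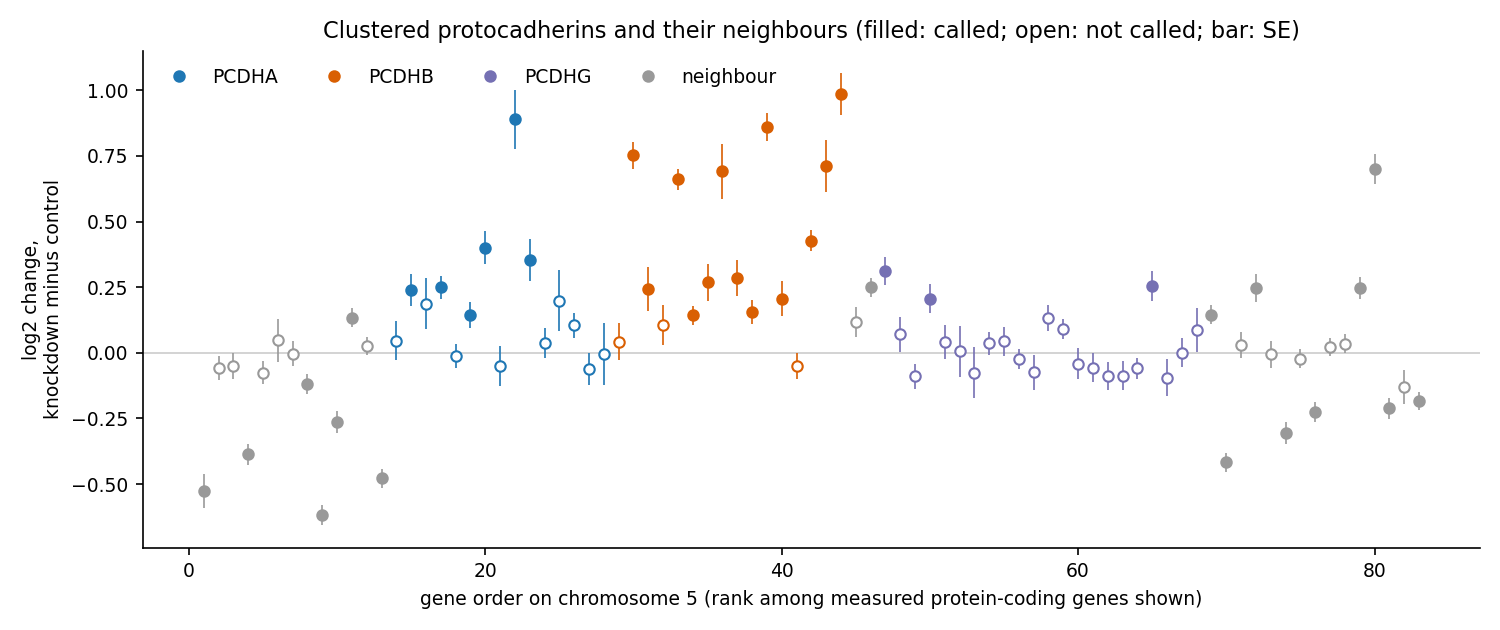
Log2 change, knockdown minus control, with SE (y axis) of the clustered protocadherins and their measured neighbours in gene order on chromosome 5 (x axis), filled where called and open where not. The beta genes stand highest, between -0.05 and 0.99, the gamma genes lie between -0.09 and 0.31, and the neighbours lie between -0.62 and 0.70. With hybridization spike-in centring the median of all genes moves to -0.17. Of the protocadherins called here, PCDHA6, PCDHB6 and PCDHB9 then turn to below 0.

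The genes around the clusters were called in both directions. The 15 nearest protein-coding genes on each side that are not protocadherins, and 2 between the beta and gamma clusters, were taken. PCDH1 and PCDH12, also on chromosome 5, were thus left out here. Of 30 measured, 6 rose and 11 fell, with a median of -0.04, where 21.4% of all genes rose and 18.6% fell. Most called neighbours before the alpha cluster fell, while those after the gamma cluster went both ways. This split by side was made after the values were seen. WDR55, a protein of ribosome biogenesis, fell by 0.62, ANKHD1 by 0.53 and ZMAT2, the last measured gene before the alpha cluster, by 0.48. ARHGAP26, a GTPase-activating protein, rose by 0.70, and FGF1, a growth factor, by 0.25. TAF7, a general transcription factor subunit that lies between the beta and gamma clusters, rose by 0.25, and its neighbour SLC25A2 changed by 0.12 and was not called. With hybridization spike-ins 1 neighbour was higher and 21 lower, where 9.73% and 50.7% of all genes were. TAF7 and FGF1 were then no longer called. With poly-A spike-ins 3 neighbours were higher and 15 lower, where 13.7% and 34.7% of all genes were.

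Among the 12 non-clustered protocadherins, 2 rose, 2 fell and 8 were not called, with a median of -0.02 (-0.18 with hybridization and -0.11 with poly-A spike-ins). PCDH10, an adhesion protein whose promoter is often methylated in tumours, read 0.42, 0.31 and 0.35 in the knockdown arrays, against -0.33, -0.31 and -0.21 in the control arrays. PCDH1, an epithelial protocadherin, read -0.24, -0.19 and -0.18 in the knockdown arrays, against 0.18, 0.23 and 0.17 in the control arrays. Both were far apart between the groups, in opposite directions. PCDH10 changed by 0.65 (SE 0.05), 1.56-fold, and PCDH1 by -0.40 (SE 0.04), to 76.0% of the control level.

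The other 2 calls were smaller. PCDH18 read 0.08, 0.06 and 0.12 in the knockdown arrays, against -0.16, -0.01 and -0.06 in the control arrays. PCDH9 read -0.02, -0.05 and -0.13 in the knockdown arrays, against 0.15, 0.10 and 0.02 in the control arrays. Neither gene's groups overlapped, but knockdown replicate 1 and control replicate 3 of PCDH9 lay close together. PCDH18 changed by 0.16 (SE 0.05) and turned to -0.0056 with hybridization spike-ins, and PCDH9 changed by -0.16 (SE 0.05). The call of PCDH18 was lost without knockdown replicate 1 or 3 or control replicate 1 (0.12 to 0.17), and that of PCDH9 without knockdown replicate 2 or 3 or control replicate 1 or 2 (-0.17 to -0.13). Without knockdown replicate 3 both calls were lost, which left 2 of the 4.

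Different probe sets of a non-clustered gene often disagreed, so the gene means hide part of the pattern. PCDH10 had 4 probe sets with changes of 1.35, 0.67, 0.31 and 0.24. The first of them read 0.75, 0.59 and 0.88 in the knockdown arrays, against -0.66, -0.60 and -0.59 in the control arrays, with a wide gap. PCDH1 had probe sets at -0.81, -0.48, -0.28 and -0.01. PCDH9 had 1 probe set that fell by 0.58, while the others were at -0.09 and 0.20 and were not called. PCDH7, a protocadherin of the heart and brain, was not called as a gene at 0.09, yet 1 of its 5 probe sets was called higher at 0.57 and 1 lower at -0.25. It was called higher by its most variable probe set or without its low-class one (0.15). The annotation does not say which transcripts these probe sets read.

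**Figure D3:**
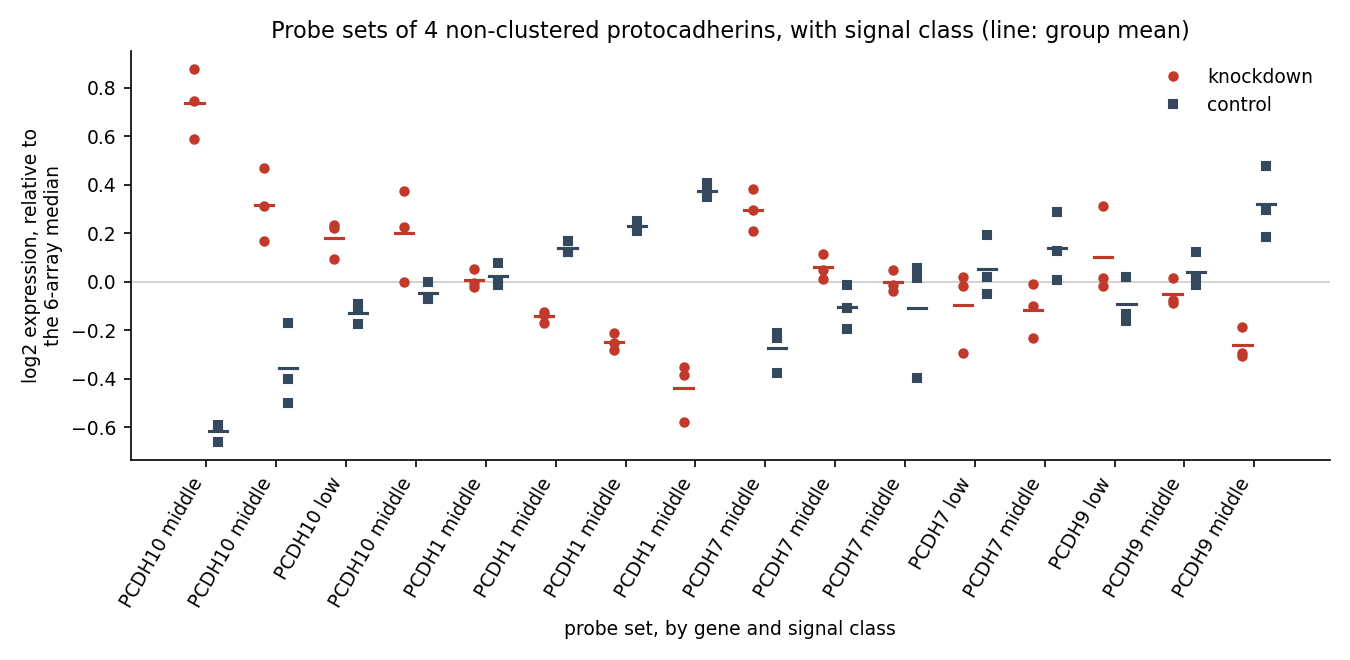
Log2 expression relative to the 6-array median (y axis) of the single probe sets of PCDH10, PCDH1, PCDH7 and PCDH9, labelled with their signal class (x axis), with knockdown points left, control points right and a line at each group mean. The PCDH10 probe sets change by 1.35 to 0.24, those of PCDH1 by -0.01 to -0.81, and PCDH7 and PCDH9 hold probe sets with changes in both directions.

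The other non-clustered genes stayed near 0. PCDH15, a part of the tip link of hair cells in the inner ear, had the smallest change (0.00091). It read -0.0048, 0.03 and 0.04 in the knockdown arrays, against 0.04, -0.0041 and 0.03 in the control arrays, which overlapped. PCDH8 changed by 0.11 and was called higher only in the fit without control replicate 1 (0.16). PCDH20 (-0.0019), PCDH17 (-0.03), PCDH19 (-0.04), PCDH11X (-0.06) and PCDH12 (-0.08) were not called. The 4 probe sets annotated to both PCDH11X and PCDH11Y were not called either, with changes between -0.04 and 0.12. With hybridization spike-ins PCDH11X, PCDH15, PCDH17, PCDH19 and PCDH20 were called lower, at -0.22, -0.17, -0.20, -0.21 and -0.17, and with poly-A spike-ins PCDH11X and PCDH19 were.

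Signal was low for many of these genes. Of the 126 probe sets 4 were in the high class (3.17%), 80 in the middle class (63.5%) and 42 in the low class (33.3%), whereas 25.7%, 55.5% and 18.9% of all probe sets were. Of the 80 in the middle class 27 were called higher and 5 lower, where 21.0% and 16.3% of all probe sets of that class were, and of the 42 in the low class 8 were higher and none lower, where 4.63% and 4.29% were. Over all 126 probe sets, 36 were higher and 5 lower, where 19.5% and 17.4% of all probe sets were. Probes shared between transcripts, of the same gene or of several genes, are a further limit, and only 44 of the 126 carry no suffix for them. The suffix was _a_at in 45, _s_at in 16 and _x_at in 21, and these kinds were not separated. Of the 44 without a suffix, 15 were higher and 3 lower, where 19.5% and 17.4% of all probe sets of any suffix were. Shares among all probe sets without a suffix were not counted in that fit. In a fit of such probe sets alone 31 protocadherin genes remained to be tested, of which 10 were higher and 2 lower, with 7 of the rises in PCDHB. Of all genes in that fit, 10.9% were higher and 11.7% lower. PCDHB13 was then at 0.09 and PCDH18 at 0.02, neither called, and PCDHB3, PCDHB9, PCDHB18P, PCDHGA12 and PCDHGB1 also lost their calls.

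**Figure D4:**
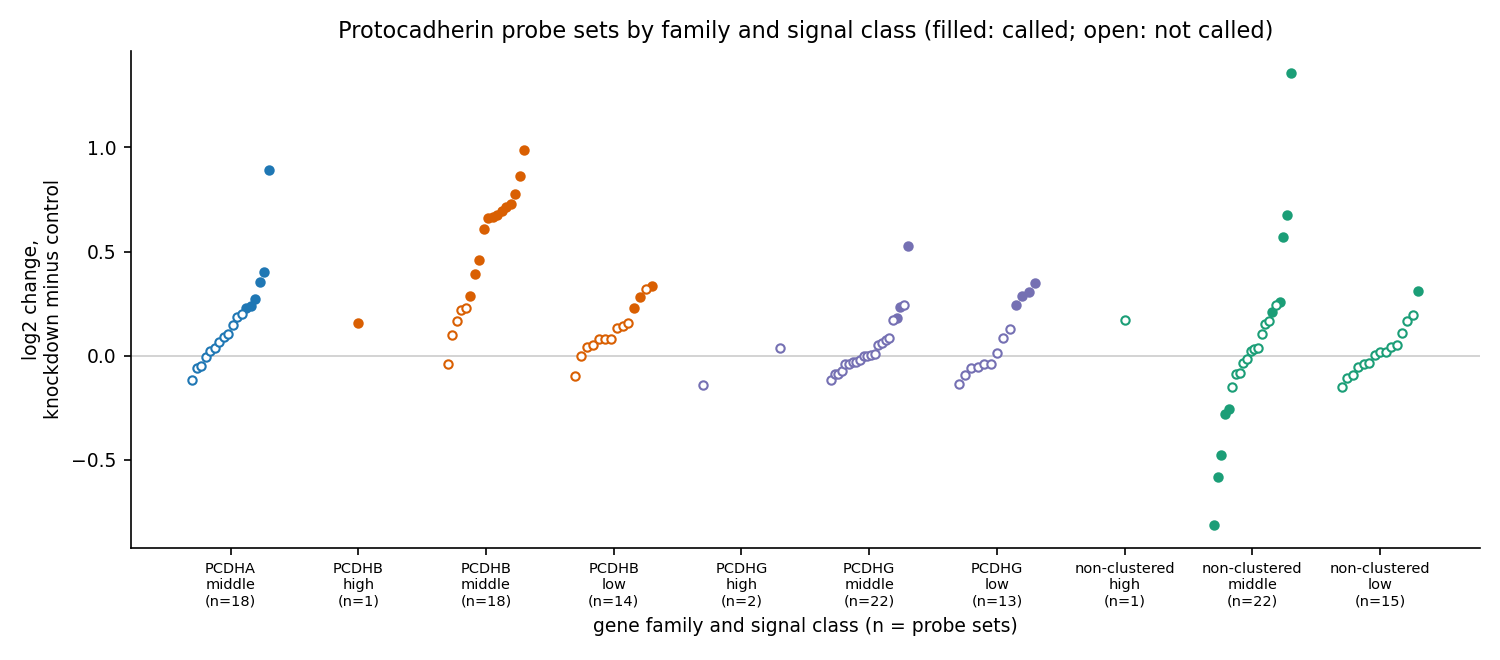
Log2 change, knockdown minus control, of single protocadherin probe sets (y axis) by gene family and signal class (x axis), filled where called and open where not. The middle-class PCDHB probe sets have a median of 0.63 and the low-class ones 0.11. The PCDHG probe sets have a median of 0.0054 and run from -0.14 to 0.53. Of these 37, 7 were called higher and none lower, where 19.5% and 17.4% of all probe sets were. With hybridization spike-in centring the median of all genes moves to -0.17.

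Genes that act on protocadherin promoters or with the proteins were followed in lists chosen with earlier results of these data known. For comparison with the counts of each list, 21.4% of all genes rose and 18.6% fell. In the list of CTCF and cohesin with its loaders and partners, 1 of 14 genes rose and 4 fell, with a median of -0.08. CTCF, which binds the conserved promoter element, read -0.10, -0.12 and -0.03 in the knockdown arrays, against 0.11, 0.04 and 0.03 in the control arrays, a change of -0.15 (SE 0.04) without overlap. It was not called without knockdown replicate 1 or 2 or control replicate 1 (-0.14 to -0.12), nor with the replicate block. The cohesin subunits RAD21, SMC1A and STAG1 changed by -0.41, -0.39 and -0.22. ZNF143, a zinc finger protein of promoters and loops, changed by 0.30 and was no longer called with hybridization spike-ins.

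In the list of DNA methylation and repressive chromatin, 6 of 23 measured genes rose and 8 fell, with a median of 0.0018. CBX3, which binds methylated histone H3, changed by -0.54, the methylcytosine oxidase TET1 by -0.44 and the corepressor TRIM28 by -0.43. LRIF1, a partner of SMCHD1, changed by 0.36, MORC2 by 0.31 and the repressor REST by 0.26, the last not called with hybridization spike-ins. SMCHD1, which silences clustered protocadherins in mice, changed by 0.03, and the DNA methyltransferase DNMT3B by -0.07. Neither was called, though both were called lower with hybridization spike-ins, and SMCHD1 was called higher by its most variable probe set (0.22).

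Among other cadherins, 27 classical and desmosomal ones were measured, of which 4 rose and none fell, with a median of -0.03. Of all genes 21.4% rose and 18.6% fell. Several of these cadherins, such as CDH1, CDH6 and CDH7, had only low-class probe sets, a class with 4.63% of all probe sets called higher. CDH12 changed by 0.98, and the desmosomal cadherins DSG2 and DSC2 by 0.70 and 0.42. CDH1 (E-cadherin) and CDH2 (N-cadherin) changed by -0.07 each and were not called, though both were called lower with either kind of spike-in. Of 18 large and atypical cadherins 2 rose and 2 fell, with a median of -0.04. FAT3, a giant cadherin, changed by -1.10 and CLSTN1, a calsyntenin, by -0.15, while CELSR2 and FAT4, both of planar cell polarity, changed by 0.55 and 0.46. CLSTN1 was not called without knockdown replicate 1 or 2 or control replicate 1 (-0.15 to -0.12).

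Among 13 catenins and plakophilins, 2 rose and none fell, with a median of 0.0041. PKP4 changed by 0.49. CTNNB1 (beta-catenin) changed by 0.13, by -0.04 with hybridization spike-ins, and was not called with poly-A spike-ins or without replicate 1 or 3 of either group (0.11 to 0.13). In the list of protocadherin processing and partners, 7 of 21 measured genes rose and 5 fell, with a median of -0.01. ADAM10, the protease that sheds protocadherin ectodomains, rose by 0.52, and APH1B and NCSTN, subunits of the gamma-secretase that cuts the remaining stub, by 0.50 and 0.47. WASF3 and WASF2, of the actin-regulating WAVE complex, changed by -1.01 and -0.32, and SET, a chromatin protein that binds PCDH7, by -0.32.

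Some properties of the arrays moved with the groups. The ratio of 3' to 5' probe sets of ACTB was higher by 0.19 on the log2 scale in knockdown arrays (0.09, 0.09 and 0.10) than in control arrays (-0.10, -0.07 and -0.11), and that of GAPDH by 0.02. The part of these differences in the changes of the protocadherins was not tested. Between arrays of a group, single probe sets differed with an SD of 0.125 to 0.144, and those of the protocadherins with 0.140 to 0.165. Of 7 measured melanocyte-lineage markers 2 rose, S100B (1.09) and TYRP1 (0.22), and 1 fell, MITF (-0.72). Of all genes 21.4% rose and 18.6% fell. S100B had all 3 of its probe sets in the high class and SOX10 1 of its 2, and MITF, PMEL, MLANA, TYR and TYRP1 had none there. Of 15 markers of blood cells, keratinocytes, endothelium, fibroblasts and neurons, the blood markers PTPRC and CD14 and the fibroblast marker COL3A1 had all their probe sets in the low class, and the neuronal marker SYP had 1 of its 3 in the high class. Of the 15, HBB (0.41), SNAP25 (0.49) and VWF (0.16) rose and KRT14 (-0.46) and DCN (-0.23) fell, and their part in the protocadherin values was not tested.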

How the data were processed

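Messenger RNA of 3 UBE2S knockdown and 3 control A375 samples was measured on Affymetrix arrays with biotin-labelled cRNA, per the labels' protocols. The deposited table holds log2 values, a base inferred from RMA. The submitters' processing notes list RMA, affy and limma, without versions. Each probe set of the deposited log2 values had been centred on its 6-array median (largest absolute median 4.85e-07). Level is therefore known only as the coarse signal class, and signal over background is unknown. The table held 0 missing values and 102 control probe sets. In the annotation 44988 probe sets had 1 symbol, 1832 had several and 2473 had none.

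Knockdown was compared with control over genes (mean of single-symbol probe sets) and over 49293 probe sets with limma 3.58.1 (lmFit, eBayes) under R 4.3.3, two-sided, on 6 arrays, without block, filter or weights, with Benjamini-Hochberg adjustment over all features. The procedure was tested on simulated data. The signal class follows from the step to which single-precision values are rounded. A large change can itself move a probe set between classes. Shared replicate numbers did not pair the arrays: same-numbered deviations correlated at -0.03, -0.02 and -0.10. No array was a copy of another, with at most 140 identical values per pair. The order of genes on chromosome 5 comes from the RefSeq gene table of GRCh38.p14. The array files name no build.

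The members, gene lists and tests were chosen with earlier results of these data known. Per-array values are given for the 5 called genes with the largest absolute change and the 1 gene with the smallest in each cluster and among non-clustered genes. From each list up to 3 called genes per direction are named, plus CTCF, SMCHD1, DNMT3B, CDH1 and CDH2; other markers, single probe sets and SLC25A2 were picked after their values were seen. The settings varied were the most variable probe set per gene, probe sets without a shared suffix, no low-class probe sets, 3 other centrings, array weights, a robust variance model, the replicate block and leaving out each array. 10 member genes had no promoter entry.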

Additional observations from a re-analysis of the deposited data

How the results depend on the processing

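The number of called genes was 28 of 67 protocadherins, 6 of 15 alpha, 15 of 18 beta, 3 of 22 gamma and 4 of 12 non-clustered genes. Of all genes 40.1% were called. With hybridization spike-in centring 8 beta, 9 gamma and 8 non-clustered genes were called, as were 86 of 116 list genes (against 41 in the fit as reported) and 10960 of 18132 genes. With poly-A spike-in centring 9 beta, 6 gamma and 66 list genes were called, as were 8783 of 18132 genes. Of the called protocadherins, hybridization spike-ins reversed PCDH18 (-0.0056), PCDHA6 (-0.022), PCDHB6 (-0.025) and PCDHB9 (-0.013). Of the named list genes that were called, they reversed CTNNB1 (-0.039). Probe sets without a shared suffix tested fewer genes and called 12 protocadherins (1 alpha, 7 beta, 1 gamma), 14 protocadherin probe sets, 15 list genes, 2 neighbours and 1886 of 8324 genes. Leaving out 1 array gave 21 to 25 protocadherins and 2 to 4 non-clustered genes called, where 6331 to 6637 of 18132 genes were. The count of 2 came without knockdown replicate 3. The replicate block called 27 protocadherins, 25 higher and 2 lower, and 6684 of 18132 genes. Among the protocadherins it ended the call of PCDHB11 alone. The replicate numbers do not pair the arrays. Other settings changed no sign of a called protocadherin. Depth is not defined for arrays, and the 3 arrays per group limit the precision.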
